A study of Gallus gallus with 12 samples.

Results

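The proteasome subunits and regulators described here are the genes whose platform symbol begins with PSMA, PSMB, PSMC, PSMD, PSME, PSMF or PSMG followed by a digit. Rows with a single symbol were kept, and the row with the highest mean over the 12 arrays stood for a gene with several. The rule found 30 rows and 29 genes, of 11528 genes with a single symbol. RNA of the breast muscle (Pectoralis major) of Ross PM3 broiler chickens, taken at day 36, was read on Affymetrix arrays. The normal diet (treatment A, PC) was given to 4 pools, a diet restricted in phosphorus and calcium (treatment B, NC) to another 4, and the same restricted diet plus phytase (treatment C, Phy1000) to the last 4. Phytase is an enzyme that frees phosphate from plant phytate. The birds of treatment C thus shared the restricted feed with those of treatment B, but not necessarily the same supply of usable phosphate. Each array held RNA pooled from 4 birds. How pools were made up and the sex of the birds are not given in the labels. All p-values therefore measure the spread between these pools only.

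The proteasome is the barrel-shaped protease that breaks down proteins tagged with ubiquitin. Its core particle is built of alpha rings (PSMA genes) that gate the barrel and beta rings (PSMB genes) that hold the cutting sites. The regulatory particle that caps the core has a base, with a ring of ATPases (PSMC genes) that unfold the substrate, and a lid, which removes the ubiquitin chain. In skeletal muscle the ubiquitin-proteasome system is the main route by which myofibrillar proteins are degraded, and its genes are known to be induced together in muscle wasting of mammals. Roles given below are those known from yeast and mammals.

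Values are the deposited log2 expression levels, in which a step of 1 is a doubling. The array medians lay between 3.10 and 3.19, and pairs of arrays correlated at 0.935 to 0.981 over the tested transcript clusters. Of 8 skeletal muscle markers looked for, 5 had a named row (ACTA1, TNNC2, TNNI2, TNNT3 and MYLK2), and their summed level was 14.58 to 14.74 in all pools on the log2 scale, a sum led by ACTA1 at a mean of 13.59. MYLK2, the myosin light chain kinase of skeletal muscle, differed by 0.33 ± 0.12 (SE) between restricted and normal and by -0.44 ± 0.12 (SE) between phytase and restricted muscle, with limma adjusted p of 0.904 and 0.519. HINTW, a W-linked and so female-specific gene, was at 8.06 and 8.08 in restricted pools 1 and 2 and at 7.66 and 7.57 in phytase pools 1 and 4, against 2.27 to 2.76 in the other 8 pools. Pools therefore differed in W-linked signal, and none of the normal pools carried it. A transcript cluster was tested if its mean over the 12 arrays was at or above the 40th percentile, a level of 2.67, and 28 of the 29 proteasome genes passed among 12482 transcript clusters. PSMB7 was the gene below that limit. As the array measures bulk tissue, fewer cells of a type and less RNA per cell cannot be told apart in any difference below.

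The 29 genes covered most of the matching symbols, but not the whole complex. The RefSeq gene table of the GRCg7b assembly holds 40 symbols that match the same letters, and 29 of them were found. Subunits that this table lacks or lists under other symbols are not in that count. Of the ATPases only PSMC1 and PSMC2 were members. PSMA2, PSMB5, PSMC3, PSMC6, PSMD4, PSMD11, PSME1, PSME3, PSMG4 and PSMC3IP, the last of which is a meiotic recombination factor and no proteasome subunit, were not analysed here. PSMC5 shares its row with SMARCD2 and was no member, and that shared row differed by 0.03, -0.11 and -0.08 in restricted against normal, phytase against restricted and phytase against normal muscle, with overlapping pools. The core particle was represented by 11 genes, the regulatory particle by 13, and the remaining 5 were the activator PSME4, the inhibitor PSMF1 and the core assembly chaperones PSMG1, PSMG2 and PSMG3. Grouped by name, the 13 include PSMD5, PSMD9 and PSMD10, which are chaperones of base assembly. Signals of different transcript clusters come from different probes, so the levels below describe each gene and do not rank their amounts.

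Alpha-ring genes had means between 6.18 and 9.38 over the 12 arrays. PSMA1, with the brightest signal of all proteasome genes, was at 9.40, 9.53, 9.38 and 9.58 in normal pools 1 to 4, at 9.40, 9.51, 9.29 and 9.30 in restricted pools, and at 9.17, 9.27, 9.44 and 9.31 in phytase pools. Values of 4 pools are given in this order of replicates throughout. Normal and restricted pools of PSMA1 overlapped, and 3 of the 4 phytase pools lay below every normal pool. PSMA3 was at 6.76, 6.97, 6.95 and 7.21 with the normal diet, at 6.78, 6.83, 6.81 and 6.79 with the restricted diet, and at 6.83, 6.87, 6.56 and 6.72 with phytase. Normal pool 4 was the highest PSMA3 value and the restricted pools were tightly grouped. PSMA4, PSMA5, PSMA6 and PSMA7 ran from 7.27 to 7.71, 7.36 to 7.85, 5.98 to 6.36 and 6.40 to 6.81, with SDs between pools of one diet, pooled over the diets, of 0.11, 0.15, 0.15 and 0.14.

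Beta-ring genes were represented by 4 structural subunits and a single catalytic one. PSMB4, a non-catalytic beta subunit, was at 7.60, 7.39, 7.41 and 7.76 in normal, 7.46, 7.41, 7.31 and 7.32 in restricted, and 7.45, 7.24, 7.44 and 7.27 in phytase pools. Its 2 highest values were normal pools 1 and 4, and the diets overlapped. PSMB1, PSMB2 and PSMB3, also non-catalytic, ran from 6.27 to 6.78, 6.32 to 6.85 and 5.67 to 6.54. PSMB3 was the most variable of them, with restricted pool 2 at 6.54 and restricted pool 3 at 5.67. PSMB7, the catalytic subunit that cuts after basic residues, was at 1.95, 1.70, 1.99 and 1.91, then 1.64, 1.86, 1.87 and 1.71, then 2.11, 1.65, 1.90 and 1.74. These dim PSMB7 values overlapped across the diets and were not tested.

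Base genes included 2 ATPases and 2 scaffold subunits. PSMC2, an ATPase, was at 7.75, 7.74, 7.88 and 7.93 with the normal diet, at 7.60, 7.66, 7.77 and 7.47 with the restricted diet, and at 7.71, 7.60, 7.72 and 7.45 with phytase. All 4 phytase pools of PSMC2 lay below all 4 normal pools, and of the restricted pools only number 3 reached into the normal range. PSMC1, the other ATPase, was the steadiest gene, at 6.94, 7.10, 6.92 and 7.06, then 6.92, 6.89, 6.90 and 6.88, then 6.97, 6.94, 6.95 and 7.10. The restricted pools of PSMC1 spanned only 6.88 to 6.92 and lay below all phytase pools. PSMD1, a scaffold of the base, was at 8.47, 8.45, 8.58 and 8.66 in normal, 8.35, 8.51, 8.32 and 8.40 in restricted, and 8.77, 8.51, 8.42 and 8.42 in phytase pools, with overlap between all diets. PSMD2, the scaffold that docks ubiquitin receptors, was at 6.87, 6.85, 6.78 and 6.83 in normal, 6.82, 7.24, 7.12 and 6.76 in restricted, and 6.68, 6.66, 6.87 and 6.74 in phytase pools. Restricted pools 2 and 3 were the 2 highest PSMD2 values.

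PSMD2 was the gene with 2 rows, and they did not move together. The dimmer row had restricted pool 2 at 5.78 and restricted pool 3 at 4.60, the highest and the lowest of its 12 values, while the brighter row was high in both. Across the 12 arrays the rows correlated at r = 0.15, a description over 12 points that share the arrays. Differences of the dimmer row were 0.04 ± 0.20 (SE) between restricted and normal and -0.09 ± 0.20 (SE) between phytase and restricted muscle, against 0.15 ± 0.13 (SE) and -0.25 ± 0.13 (SE) in the brighter one.

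Lid genes held the widest differences of restricted muscle from the other diets. PSMD12, a structural lid subunit, was at 6.85, 6.61, 7.02 and 6.94 in normal pools, at 6.05, 6.43, 6.72 and 6.56 in restricted pools, and at 7.21, 6.99, 7.10 and 6.48 in phytase pools. Restricted pool 1 was the lowest PSMD12 value, and phytase pool 4 fell among the restricted pools while the other 3 phytase pools were high. PSMD7, the inactive partner of the lid deubiquitinase, was at 8.05, 8.05, 8.25 and 8.26, then 7.79, 8.04, 7.94 and 7.77, then 8.21, 7.99, 8.23 and 7.72. Its restricted pools all lay below its normal pools, although by a margin of 0.01 between the nearest pools, and phytase pool 4 was the lowest of all. PSMD13, another lid subunit, ran the other way, at 6.46, 6.44, 6.12 and 6.65 in normal, 6.76, 6.67, 6.72 and 6.80 in restricted, and 6.56, 6.09, 6.71 and 6.61 in phytase pools. All restricted pools of PSMD13 lay above all normal pools, by 0.02 at the nearest, and phytase pool 2 and normal pool 3 were the low values. PSMD14, the deubiquitinase itself, ran from 6.11 to 6.69, PSMD6 from 5.06 to 5.68 and PSMD3 from 5.09 to 5.96, all with overlapping diets.

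PSMD5, PSMD9 and PSMD10 carry subunit names but act as chaperones in assembling the base. PSMD10, also known as gankyrin, was at 4.14, 4.03, 4.13 and 4.45 in normal, 4.31, 3.98, 4.16 and 3.86 in restricted, and 4.12, 4.20, 4.28 and 4.35 in phytase pools, with overlap. PSMD5 and PSMD9 ran from 4.37 to 4.99 and from 4.18 to 5.12. Restricted pool 1 was the highest value of both, and for PSMD9 restricted pool 3 was the lowest. In PSMD9 the SD between pools was 0.03 with the normal, 0.39 with the restricted and 0.18 with the phytase diet (n = 4 each).

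Regulators outside both particles had pools that overlapped between all diets. PSMF1, an inhibitor of the core particle in the test tube, was at 5.83, 5.72, 5.84 and 5.69 in normal, 5.79, 5.91, 6.02 and 5.73 in restricted, and 5.49, 5.62, 5.74 and 5.70 in phytase pools. Restricted pools 2 and 3 were the highest PSMF1 values, as they were for PSMD2. PSME4, an activator that caps the core in place of the regulatory particle, ran from 5.90 to 6.89, with normal pool 3 highest and a pooled within-diet SD of 0.29, the widest of the 29 genes. PSMG2, which with PSMG1 starts the assembly of the alpha ring, was at 5.58, 6.02, 6.00 and 6.12 in normal, 5.75, 5.75, 5.63 and 5.34 in restricted, and 5.78, 5.79, 5.67 and 5.06 in phytase pools. Of the normal pools, 3 lay above every other pool and the fourth, number 1, lay among the rest. PSMG1 was dim, at 3.12, 3.46, 3.76 and 3.71, then 3.61, 3.36, 3.20 and 3.21, then 3.42, 3.22, 3.61 and 3.32, with overlap. PSMG3, a later chaperone of the alpha ring, was at 4.83, 5.36, 5.43 and 5.55, then 5.15, 5.62, 5.61 and 5.27, then 5.45, 5.14, 4.85 and 5.19. Normal pool 1 and phytase pool 3 were its low values.

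**Figure D1:**
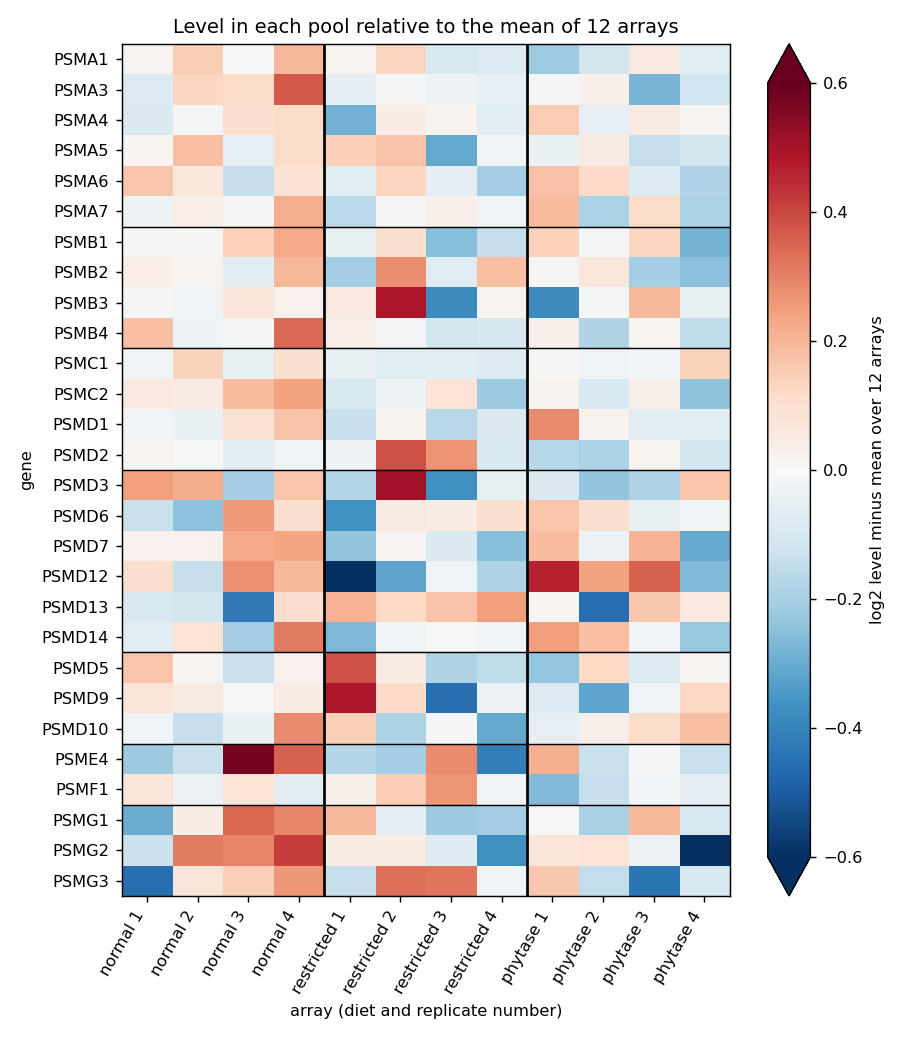
Level of each of the 28 tested genes in each pool (columns, by diet and replicate number) minus the gene's mean over the 12 arrays, in log2 units, with colours saturating at 0.6. Thin lines separate alpha ring, beta ring, base, lid, base assembly chaperones, activator with inhibitor, and core assembly chaperones. Normal pool 4 is above the mean for 26 of the 28 genes and restricted pool 4 below it for 24, counts that were not made over all tested transcript clusters.

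Proteasome genes were also averaged within each pool. No other set of genes was averaged in this way, so the spread below is not known to be particular to the proteasome. The mean deviation of the 28 tested genes from their 12-array means ran from -0.11 in phytase pool 4 and -0.10 in restricted pool 4 to 0.18 in normal pool 4. The median over all tested transcript clusters was between -0.02 and 0.01 in every array. As the arrays had similar medians, it would be near level whatever these genes did, and it shows only that the arrays were level. Normal pool 4 held the highest value of 10 of the 28 genes. That count was not made over all tested transcript clusters, so it is not known to be particular to proteasome genes. In the core particle the mean deviation was 0.02, 0.05, 0.02 and 0.19 in normal, -0.06, 0.13, -0.13 and -0.05 in restricted, and 0.00, -0.03, -0.01 and -0.14 in phytase pools. In the regulatory particle it was 0.03, -0.01, -0.01 and 0.15, then -0.06, 0.05, -0.06 and -0.09, then 0.06, -0.05, 0.03 and -0.04. Core values of the restricted pools thus overlapped those of both other diets, with restricted pool 2 among the normal pools. Core values of the phytase pools, at most 0.00, all lay below those of the normal pools, at least 0.02. This separation was not tested. The 4 pools with HINTW signal were spread through the range of core values, with deviations of -0.06, 0.13, 0.00 and -0.14.

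**Figure D2:**
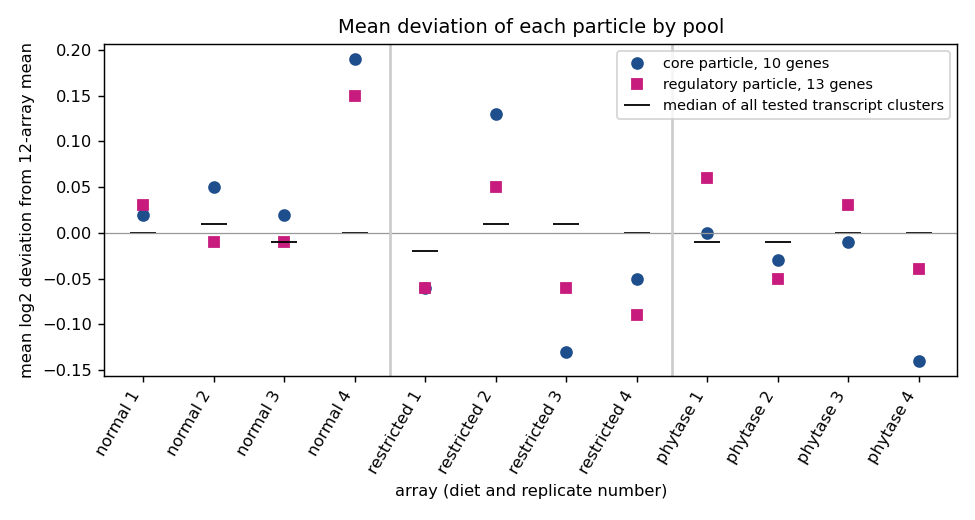
Mean log2 deviation from the 12-array mean of the 10 tested core particle genes (circles) and the 13 regulatory particle genes (squares) in each pool, with the median of all tested transcript clusters as a dash. Normal pool 4 stands highest at 0.19 and 0.15. Regulatory particle values of the 3 diets overlap. Core particle values of the restricted pools overlap those of both other diets, and those of the phytase pools all lie below those of the normal pools.

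The first comparison, restricted against normal muscle, asks how levels differed under a shortage of phosphorus and calcium. Proteasome genes leaned lower in restricted muscle by a small amount: 22 of 28 were lower, with a median difference of -0.11, against 51.0% of all tested transcript clusters lower and a median of -0.005. As these genes share the pools and vary together between them, the 28 are not separate observations. Core particle genes were lower in 9 of 10, with a median of -0.10 and sizes from -0.18 to 0.03, and all 6 alpha-ring genes were lower, by -0.07 to -0.17. Regulatory particle genes were lower in 10 of 13, with a median of -0.11 and a wider range from -0.41 to 0.32. No gene passed the threshold in limma with Benjamini-Hochberg adjustment over the 12482 transcript clusters, where 0.0% were called, and the smallest adjusted p among proteasome genes was 0.904. At an unadjusted p under 0.05 there was 1 proteasome gene, PSMD12, of 28, against 5.3% of all tested.

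PSMD12 differed by -0.41 ± 0.18 (SE) between restricted and normal muscle, a 1.33-fold lower level (limma unadjusted p = 0.0377, adjusted p = 0.904), and its 95% interval ran from -0.80 to -0.03. PSMD7 differed by -0.27 ± 0.13 (SE), with an interval from -0.54 to 0.01 and non-overlapping pools. Over all tested transcript clusters 1.15% had restricted pools entirely below the normal ones, so 1 of 28 proteasome genes is near the background. PSMC2 and PSMG2 differed by -0.20 ± 0.11 (SE) and -0.31 ± 0.18 (SE), with overlapping pools. PSMD13 was the lone lid subunit with a higher level, by 0.32 ± 0.15 (SE), with an interval from -0.01 to 0.65 and non-overlapping pools, where 1.16% of all tested were entirely higher. The adjusted p of all 4 was 0.904 in limma. Base subunits were lower in 3 of 4 and lid subunits in 5 of 6, with medians of -0.13 and -0.12.

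Markers of other cell types were read in the same comparison, and none passed after adjustment in limma, where the smallest adjusted p among them was 0.314, for HBA1. The hemoglobin genes HBA1 and HBAD differed by 1.48 ± 0.28 (SE) and 1.67 ± 0.34 (SE) between restricted and normal muscle, with non-overlapping pools. HBA1 and HBAD, the 2 of 5 erythroid markers with a row, had a summed level of 7.71 to 8.05 in normal, 8.94 to 10.61 in restricted and 7.67 to 8.89 in phytase pools on the log2 scale. Fibroblast markers, 4 of 6 with a row, summed to 11.41 to 12.45, 12.02 to 12.67 and 11.97 to 12.56, and macrophage and lymphocyte markers, 6 of 9, to 9.56 to 10.24, 9.72 to 10.66 and 9.60 to 10.31. Adipocyte markers, 4 of 5 with a row, summed to 7.70 to 8.46, 8.30 to 8.61 and 7.90 to 8.43. Between restricted and normal muscle PLIN1 differed by 0.75 ± 0.19 (SE), with overlapping pools, and LPL, ADIPOQ and CD36 by 0.53, 0.19 and 0.12. Between phytase and restricted muscle PLIN1, ADIPOQ and LPL differed by -0.50, -0.25 and -0.19, and CD36 by 0.60. Endothelial markers, 4 of 5, summed to 7.12 to 7.31, 6.79 to 7.71 and 7.26 to 7.62. The part of these cells in the proteasome values was not tested. Without the 4 pools with HINTW signal the median difference of the proteasome genes was -0.18 and that of PSMD12 -0.21, and with the HINTW level as a covariate they were -0.14 and -0.25. Leaving out normal pool 4 took the median of all tested proteasome genes to -0.07 and that of the regulatory particle to -0.02, while that of the core particle became -0.07.

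**Figure D3:**
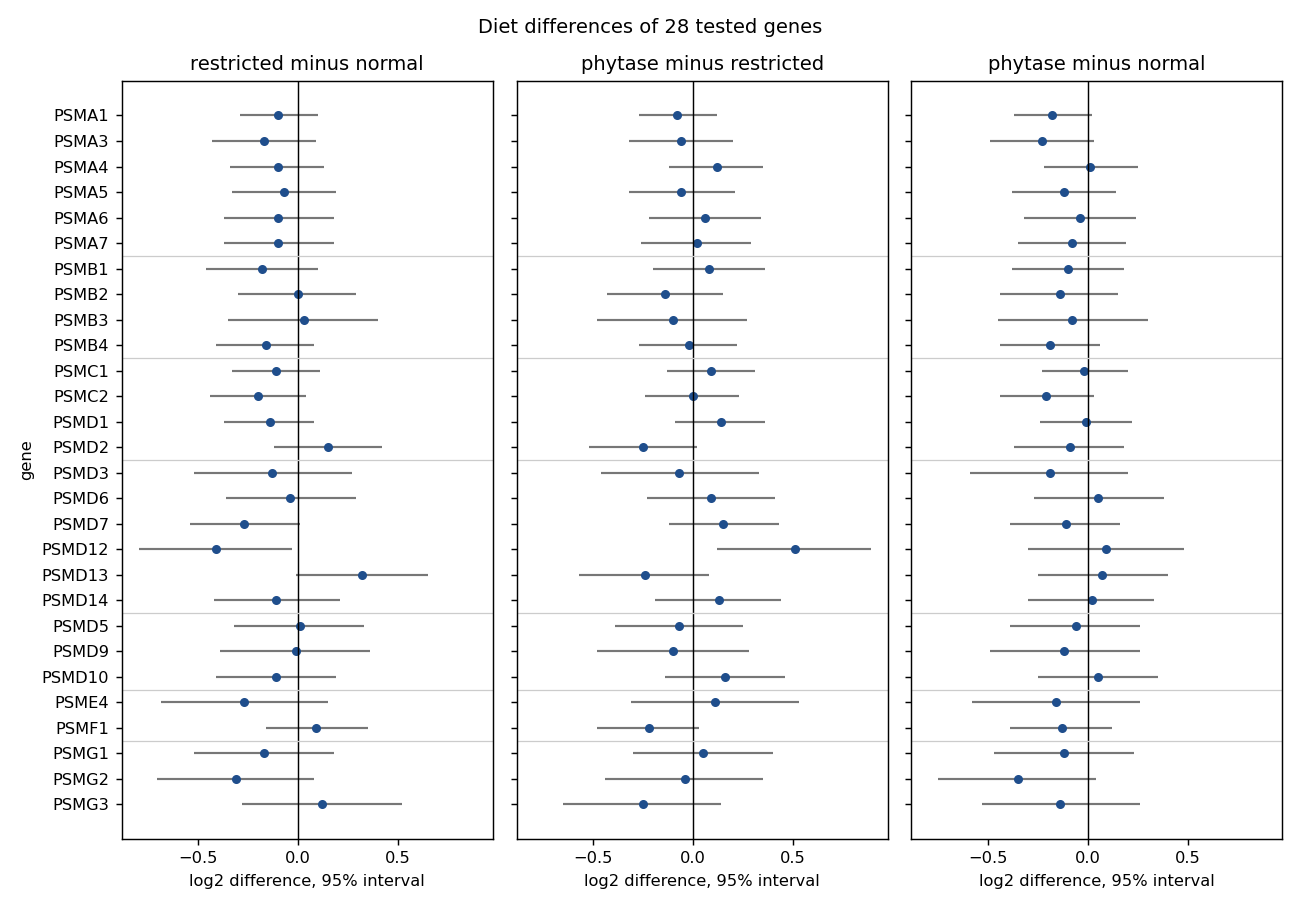
Difference in log2 level (points) with its 95% interval (lines) for the 28 tested genes in the 3 comparisons of diets, from the limma fit to all 12 arrays, in the same order as the plot of deviations. Most points lie below 0 against the normal diet, and PSMD12 is the one gene whose interval leaves out 0, in the comparisons with restricted muscle.

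The second comparison, phytase against restricted muscle, concerns the added enzyme, since both groups ate the restricted feed. How the pools were made up is not given, and other differences between these groups were not tested. Proteasome genes did not lean one way: 15 of 28 were lower and 13 higher, with a median of -0.01, against 51.3% of all tested transcript clusters lower. Core particle genes had a median of -0.04 with 6 of 10 lower. Lid subunits were higher in 4 of 6 with a median of 0.11, and base subunits were evenly divided. PSMD12 differed by 0.51 ± 0.18 (SE), a 1.42-fold higher level with phytase, with an interval from 0.12 to 0.89 (limma unadjusted p = 0.0144, adjusted p = 0.519). It was the 1 proteasome gene of 28 at an unadjusted p under 0.05, against 8.83% of all tested, of which 5.03% of all tested were higher and 3.8% lower. After adjustment 0 passed, as for 0.0% of all.

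The members next in order of p were lower with phytase. PSMD2 differed by -0.25 ± 0.13 (SE), PSMF1 by -0.22 ± 0.12 (SE), PSMD13 by -0.24 ± 0.15 (SE) and PSMG3 by -0.25 ± 0.19 (SE), with adjusted p of 0.573, 0.591, 0.649 and 0.695 in limma. Their pools overlapped, and 0 of the 28 genes had phytase pools entirely below restricted pools, against 2.03% of all tested. PSMD13 differed by -0.11 without phytase pool 2, PSMG3 by -0.15 without phytase pool 3 and PSMD2 by -0.16 without restricted pool 2. PSMC1 had all phytase pools above all restricted pools, as had 1.64% of all tested, with a small difference of 0.09 ± 0.10 (SE). The PSMD12 difference was 0.37 without restricted pool 1 and 0.66 without phytase pool 4. The restricted pools enter this comparison and the one with the normal diet, and the opposite signs of PSMD12 and PSMD13 in the pair of comparisons share them.

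**Figure D4:**
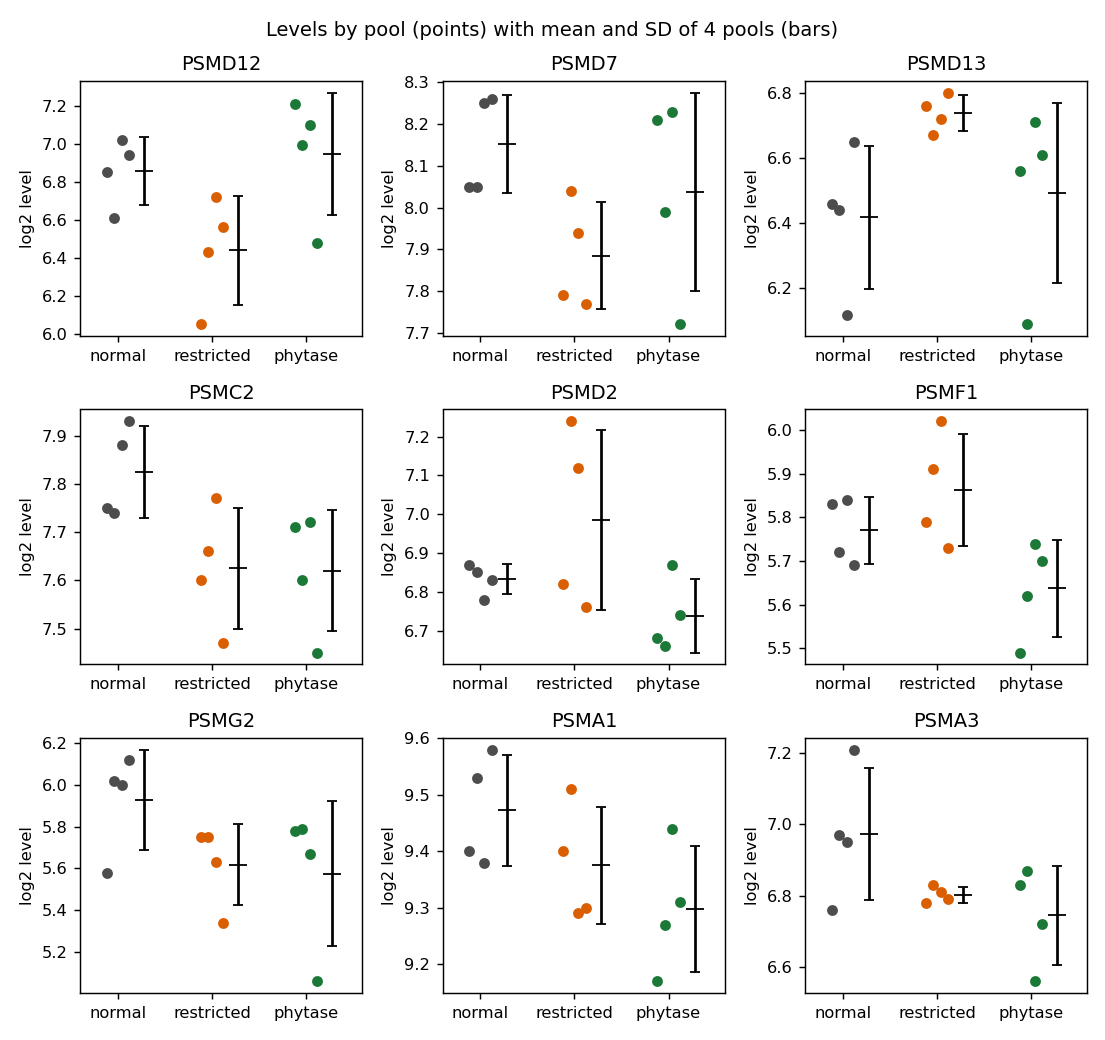
Log2 level of 9 genes in each pool (points) by diet, with the mean and SD of the 4 pools as black bars; each panel has its own axis, which does not start at 0. Restricted pools of PSMD12 and PSMD7 sit low and those of PSMD13 high, and phytase pool 4 is the lowest phytase value of PSMD12, PSMD7, PSMC2 and PSMG2.

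The third comparison, phytase against normal muscle, sets the restricted feed with the enzyme against the normal diet. Proteasome genes again leaned lower: 22 of 28 were lower than with the normal diet, with a median of -0.11, against 50.0% of all tested transcript clusters. The core particle had 9 of 10 lower and a median of -0.11, and the regulatory particle 8 of 13 lower and a median of -0.02. Lid subunits were lower in 2 of 6, and all 4 base subunits were lower, by -0.01 to -0.21. No difference between the particles was tested. The normal pools are shared with the comparison of restricted and normal muscle, so both leans rest on the same 4 pools, of which number 4 was the highest. Without normal pool 4 the median of the proteasome genes was -0.07 in both comparisons.

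PSMG2 differed by -0.35 ± 0.18 (SE) between phytase and normal muscle, and by -0.18 without phytase pool 4. PSMA1 differed by -0.18 ± 0.09 (SE), PSMC2 by -0.21 ± 0.11 (SE), PSMA3 by -0.23 ± 0.12 (SE) and PSMB4 by -0.19 ± 0.12 (SE). The adjusted p of all 5 was 0.984 in limma, 0 of 28 reached an unadjusted p under 0.05, against 4.32% of all tested, and 0.0% passed after adjustment. PSMC2 was the 1 gene with phytase pools entirely below normal pools, as were 1.51% of all tested, and 0 genes had them entirely above, against 1.54%. PSMA3 and PSMB4 differed by -0.15 and -0.12 without normal pool 4. PSMD12, at 6.94 ± 0.32 with phytase and 6.86 ± 0.18 with the normal diet (SD, n = 4), differed by 0.09 ± 0.18 (SE). Across the 3 diets together PSMD12 was the 1 of 28 genes at an unadjusted p under 0.05 in the moderated F test (unadjusted p = 0.0322, adjusted p = 0.800), against 5.97% of all tested.

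Between pools of one diet, core particle genes varied together, and the genes grouped here as the regulatory particle, base assembly chaperones included, less so. With the diet means removed, the median Pearson correlation over the 12 arrays was 0.31 among the 45 pairs of core genes, 0.05 among the 78 pairs of regulatory particle genes and 0.19 between the particles. The regulatory group includes the base assembly chaperones PSMD5, PSMD9 and PSMD10. Their median correlations with the other tested proteasome genes were -0.08, -0.13 and 0.00. The value of 0.05, and its range without single arrays, thus do not describe base and lid subunits alone, whose own median was not taken. All pairs of tested named genes, dim ones included, had a median of 0.01. As the arrays were level, that median would lie near 0 whatever the proteasome genes did. Pairs of genes of similar level were not looked at. The correlations are descriptions over 12 points that share arrays and processing, and no difference between them was tested. Leaving out 1 array at a time, the core median ran from 0.23 to 0.37 and the regulatory one from 0.02 to 0.14.

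Some of the closest pairs joined core genes to a lid gene, while the closest of all lay within the regulatory particle. Of 378 pairs the 4 with the highest correlation were PSMC2 with PSMD7, PSMB1 with PSMD7, PSMC2 with PSME4 and PSMA7 with PSMD7, at r = 0.88, 0.83, 0.79 and 0.78. PSMD7, of the lid, thus belonged to 3 of them. Their Spearman correlations were 0.84, 0.84, 0.81 and 0.71, and with the 2 arrays farthest from the median of the first gene named left out of each pair, r was 0.82, 0.90, 0.84 and 0.67. Each of the 4 lowest pairs held PSMD5 or PSMD9, of the base assembly chaperones. PSMD10, the third of them, had a median correlation of 0.00 with the other genes and none below -0.43. Low medians were not particular to these chaperones, as the inhibitor PSMF1 was at -0.14 and the ATPase PSMC1 at -0.06. PSMD5 was low where PSMA4, PSMD6 and PSMD12 were high, at r = -0.83, -0.72 and -0.71, and PSMD9 with PSMD12 was at -0.71. Without the 2 farthest arrays, chosen on PSMA4, PSMD5, PSMD12 and PSMD12 in turn, these 4 were -0.61, -0.54, -0.62 and -0.44. PSMD5 and PSMD9 themselves went together at r = 0.63. Restricted pool 1 was the lowest pool for PSMA4, PSMD6 and PSMD12 and the highest for PSMD5 and PSMD9. Without it, a choice made after seeing the data, the 4 negative values were -0.64, -0.46, -0.53 and -0.54 and the positive one was 0.22. The relation of PSMD5 with PSMD9 was at r = -0.01 without the 2 arrays farthest in PSMD5 and rests on those pools. Pairs were picked for their size among 378, so their values describe these pools only.

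**Figure D5:**
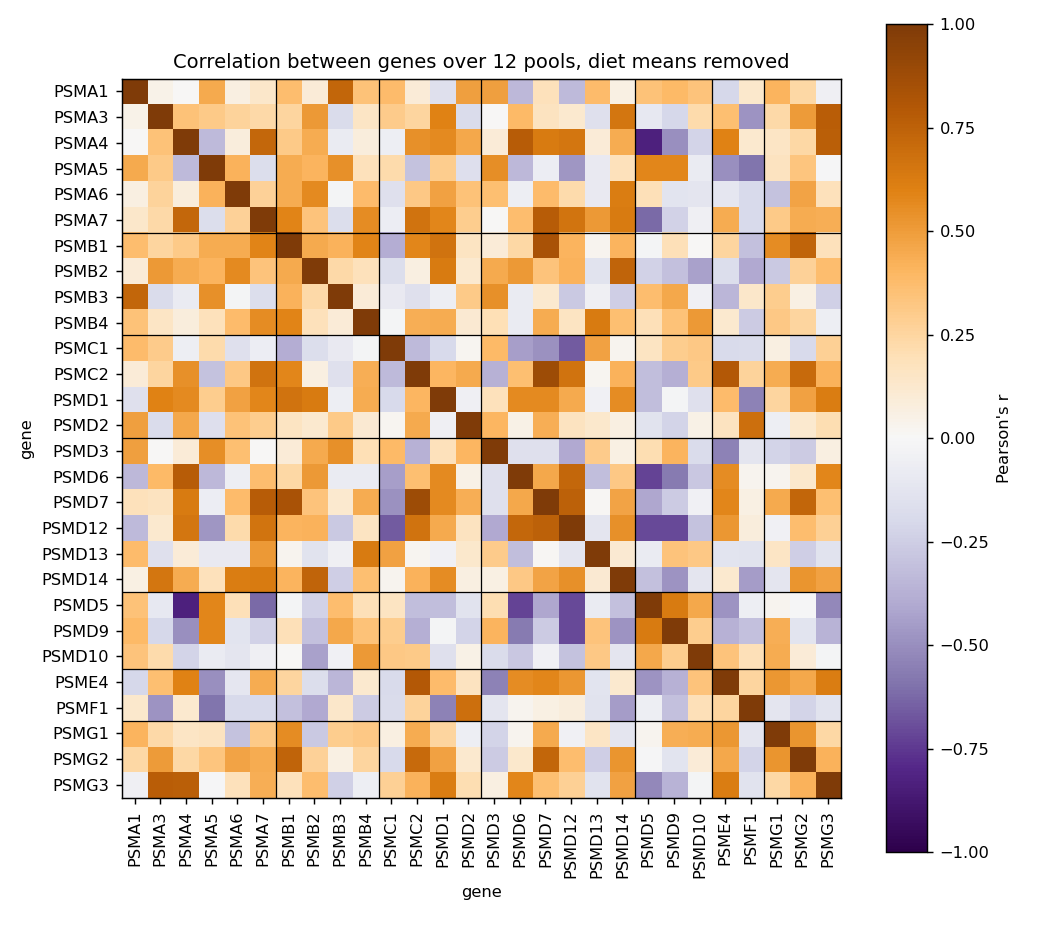
Pearson correlation between each pair of the 28 tested genes over the 12 pools after removal of the diet means, from -1 (purple) to 1 (orange), with thin lines between the groups of genes. Core genes are mostly orange among themselves, and PSMD5 and PSMD9 are purple against PSMA4, PSMD6 and PSMD12.

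Proteins that bind or assemble the proteasome but carry other names were looked at from a list of 14 symbols, of which 9 had a row and were tested. In restricted against normal muscle 7 of the 9 were lower, against 51.0% of all tested, with a median of -0.22 against -0.005. After adjustment in limma 0 passed. At an unadjusted p under 0.05 there were 2, both lower, against 5.3% of all tested in either direction. SHFM1, the small lid subunit also called SEM1, was at 6.55 ± 0.16 in normal, 6.15 ± 0.23 in restricted and 6.44 ± 0.22 in phytase muscle (SD, n = 4). Its restricted pools, at 5.82, 6.34, 6.27 and 6.17, all lay below the lowest normal pool at 6.36, a difference of -0.40 ± 0.15 (SE, limma adjusted p = 0.904). SHFM1 was 1 of the 9 with such pools, against 1.15% of all tested, and the margin between the nearest pools was 0.02. UCHL5, a deubiquitinase docked on the base, was at 5.24, 5.12, 5.36 and 5.23 in normal and at 4.27, 4.83, 5.17 and 4.94 in restricted pools. It differed by -0.43 ± 0.20 (SE) there and by 0.46 ± 0.20 (SE) between phytase and restricted muscle, and restricted pool 1 was its low value, without which the differences were -0.26 and 0.28. PITHD1, which shares a domain with TXNL1, differed by -0.29 ± 0.14 (SE) between phytase and restricted and by -0.19 ± 0.14 (SE) between phytase and normal muscle, where TXNL1, a thioredoxin bound to the proteasome, differed by -0.13 ± 0.14 (SE). The phytase pools of PITHD1 lay entirely below the normal ones, 1 of the 9 against 1.51% of all tested. PITHD1 was at -0.19 without restricted pool 1 and -0.07 without the 4 pools with HINTW signal in phytase against restricted muscle, and TXNL1 was at -0.05 without phytase pool 4 and 0.00 without the HINTW pools. In phytase against restricted muscle 4 of the 9 were lower and 5 higher, with a median of 0.16, against 51.3% of all tested lower. UCHL5 was the 1 at an unadjusted p under 0.05, higher, against 8.83% of all tested in either direction. Against the normal diet 7 were lower with phytase, against 50.0% of all tested, with a median of -0.11. There 0 were at that level, against 4.32% of all tested. POMP, the core maturation factor, was not analysed here.

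Of the genes listed as controlling proteasome transcription, those with a row gave no value near the threshold. Of 11 symbols listed, 6 had a row, and of these 3 were lower and 3 higher in restricted than in normal muscle. At an unadjusted p under 0.05 there were 0 of 6 in each of the 3 comparisons. The shares of all tested were 5.3%, 8.83% and 4.32%, so 0 of 6 is near the background. NGLY1, the enzyme that strips sugars from the transcription factor NFE2L1 and so activates it, differed by -0.33 ± 0.30 (SE) between restricted and normal and by 0.40 ± 0.30 (SE) between phytase and restricted muscle, with restricted pools from 4.36 to 5.79. Without restricted pool 3 these NGLY1 differences were -0.63 and 0.70, and without restricted pool 4 they were -0.15 and 0.22. NFE2L2, a related factor of the oxidative stress response, differed by 0.17 ± 0.20 (SE) with phytase against the restricted diet, by 0.05 without phytase pool 1, by 0.34 without restricted pool 3, and by -0.08 without the 4 pools with HINTW signal. Small MAF proteins, the partners of both factors, differed by 0.14 ± 0.13 (SE) for MAFG in restricted against normal and 0.12 ± 0.15 (SE) for MAFK in phytase against normal muscle. MAFF, also a small MAF, was lower in both of these comparisons, by -0.06 ± 0.19 (SE) and -0.09 ± 0.19 (SE). MAFG was at 0.06 without restricted pool 3, and MAFK at 0.05 without phytase pool 1 and 0.21 without phytase pool 4. NFE2L1 itself and the listed SYVN1, VCP, FOXO1 and FOXO3 were not analysed here.

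Ubiquitin and delivery genes, 10 of 16 listed with a row, were lower in 7 of 10 in restricted against normal muscle, with a median of -0.18. Of all tested 51.0% were lower there, with a median of -0.005. UFD1L, a cofactor of the unfolding ATPase VCP, differed by -0.28 ± 0.12 (SE) and FAF1, another VCP cofactor, by -0.38 ± 0.17 (SE). Both were at an unadjusted p under 0.05 (0.0323 and 0.0478 in limma, adjusted p = 0.904), 2 of 10 against 2.71% of all tested that were lower at that level. Between phytase and restricted muscle RAD23B, a shuttle that carries ubiquitinated proteins to the proteasome, differed by 0.39 ± 0.17 (SE) and UBQLN4, another shuttle, by -0.31 ± 0.14 (SE), with unadjusted p of 0.0354 and 0.0472 and adjusted p of 0.539 and 0.562 in limma. These were 2 of 10, against 8.83% of all tested in either direction. In that comparison 4 of the 10 were lower and 6 higher, against 51.3% of all tested lower. UBQLN4 differed by -0.19 without restricted pool 2, its highest value. Against the normal diet UFD1L and NSFL1C, also a VCP cofactor, differed by -0.16 ± 0.12 (SE) and -0.15 ± 0.16 (SE) with phytase. There 6 of the 10 were lower and 3 higher, against 50.0% of all tested lower, and 0 reached an unadjusted p under 0.05, against 4.32%. UFD1L was at -0.10 without normal pool 4, and NSFL1C at -0.04 without phytase pool 4 and -0.25 without phytase pool 1.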

How the data were processed

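Each of 12 Affymetrix arrays measured 1 pool of 4 birds, from 100 ng of total RNA of 100 mg of muscle, as the labels' protocols state. The authors deposited log2 levels of 20804 transcript clusters. GCRMA and Affymetrix Expression Console are named in the submitters' processing notes, whose roles and versions are not given in the sources used here. No source states the logarithm's base, and 2 was inferred from a value range of 0.83 to 14.36. GCRMA compresses dim signals, so if it gave these values, differences of dim genes may come out too small. Gene symbols came from the platform annotation (12300 transcript clusters with 1 symbol, 256 with several, 8248 with none) and were matched to RefSeq's gene table by symbol for coverage only.

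Groups came from the sample titles. In limma 3.58.1 under R 4.3.3, the 3 diet means were estimated jointly from the 12 arrays with a variance prior that follows intensity, on the 12482 transcript clusters at or above the 40th percentile, with Benjamini-Hochberg adjustment over all of them and a threshold of 0.05. The number of arrays limits the precision. The fit was tested on simulated data. Members, lists and tests were chosen with earlier results of these data known, so the lean of proteasome genes toward lower values was in view beforehand. Lists are described by counts and medians, with no list test.

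All genes that the rule found were accounted for. Each pool's value was given for the 5 genes with the smallest unadjusted p in each comparison, the 3 brightest and the 3 dimmest, the gene that was not tested and those with non-overlapping pools, and the other lists were named by their 2 smallest p. Alternatives were other filters, normalizations, a prior without trend, array weights, an offset of 16, the replicate number as a block, the HINTW level as a covariate, leaving out the 4 arrays with a HINTW level above 5, the mean of both PSMD2 rows, and leaving out each array.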

Additional observations from a re-analysis of the deposited data

Results flagged for a closer look

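In 96 groups of 4 pools looked at, which were the 29 genes and 3 mean deviations in each diet, 3 had a single pool whose gap to the nearest other pool exceeded 0.829 of the group's range, where chance flags about 1 in 20. PSMD14 was at 6.11 in restricted pool 1, against 6.35 to 6.38 in the other restricted pools. PSMD6 was at 5.06 in restricted pool 1, against 5.47 to 5.52 in the others. PSMG2 was at 5.06 in phytase pool 4, against 5.67 to 5.79 in the other phytase pools.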

How the results depend on the processing

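No transcript cluster passed the adjusted threshold in limma in any of the 3 comparisons or the F test under any alternative run. The count of proteasome genes at an unadjusted p under 0.05 in restricted against normal muscle, 1 as reported, was 2 with quantile normalization, 0 with the HINTW covariate and 0 to 2 when leaving out 1 array. In phytase against restricted muscle, 1 as reported, it was 3 with quantile normalization and 1 to 2 when leaving out 1 array. In phytase against normal muscle, 0 as reported, it was 0 to 2 when leaving out 1 array, and in the F test, 1 as reported, it was 0 to 1, and 0 without the arrays with HINTW signal. The median difference of the regulatory particle in restricted against normal muscle was -0.18 without the arrays with HINTW signal and -0.13 to -0.02 when leaving out 1 array, with -0.02 reached without normal pool 4. Core particle medians were -0.18 to -0.07 in restricted against normal, -0.14 to -0.08 in phytase against normal, and changed sign in phytase against restricted muscle, from -0.05 to 0.04. In that last comparison the median of all members ran from -0.05 to 0.06. Without the arrays with HINTW signal NFE2L2 reversed to -0.08 in phytase against restricted muscle, and TXNL1 went to 0.00 in phytase against normal muscle. The differences of UCHL5 and FAF1 in restricted against normal muscle were -0.18 and -0.22 without those arrays. The cause of these changes was not tested. Over the tested transcript clusters the counts at an unadjusted p under 0.05 were 662 (440 to 1073), 1102 (587 to 1727), 539 (327 to 1029) and 745 (495 to 1233). They belong to the 3 comparisons and the F test, with the range over all alternatives in brackets. These ranges include alternatives that tested more or fewer transcript clusters. With all 20804 tested, the first 2 counts were 1040 and 1531. Leaving out restricted pool 3 gave the highest values of the first, second and F test counts, normal pool 3 the lowest of the first, at 440, and phytase pool 2 the lowest of the third and the F test. Deviations of same-numbered pools correlated at -0.16 to 0.18. Pools with different numbers were not set beside them, so these values cannot settle whether the replicate numbers pair the pools. With the replicate block the member medians stayed at -0.11, -0.01 and -0.11 and the counts at 1, 1 and 0. With a median SE of 0.13 per proteasome gene, differences of the size of these medians are below what 4 pools per diet can resolve for a single gene.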
